A study of Mus musculus with 4 samples.

Results

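The subject of this report is the contractile apparatus of smooth muscle in mouse ileum, followed through 31 genes chosen by name for their place in that apparatus: actins, myosin and tropomyosins, their regulators, the filaments and membrane anchors that transmit force, 2 ion channel subunits, and the coactivator that drives their transcription. Each gene was found through the RefSeq accession of its array probes and read from its brightest probe. All 31 genes had a probe, 26 exceeded background clearly in every array of the metformin or the control group and were tested among 21648 genes and transcripts, and 5 (Lmod1, Kcnmb1, Cacna1c, Myocd and Cav1) were not tested. The study hybridised total RNA from the ileum of male C57BL/6J mice, 10 weeks old, to single-colour arrays. It set 2 samples from mice given oral metformin, a glucose-lowering biguanide, at 1000 mg/kg (metformin 1 and metformin 2) against 2 control samples (control 1 and control 2). The labels name neither the vehicle nor the duration of treatment, and they do not say whether a sample is 1 animal or a pool, so the p-values measure only how far these samples differ, and that spread may be technical. A single slide, scanned once, carried all 4 arrays, with the controls at the first positions and the metformin samples after them, so position on the slide and treatment cannot be told apart.

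The wall of the ileum carries an inner circular and an outer longitudinal layer of smooth muscle outside the mucosa, with a thin muscle sheet beneath the mucosa and smooth muscle around vessels. In these cells calcium binds calmodulin, calmodulin activates myosin light chain kinase, and phosphorylated myosin pulls on actin filaments that are anchored in dense bodies and in plaques at the membrane. The genes of this apparatus are switched on together by serum response factor, which binds the CArG box in their promoters and enhancers, and by its coactivator myocardin. The defining genes of the cell type, among them Myh11, Acta2, Actg2, Cnn1, Tagln and Des, were well above background on all 4 arrays.

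Promoter sequence was looked at first, because binding of serum response factor to CArG boxes is the known shared feature of these genes. RefSeq promoters (build GRCm38.p6, 250 bases before to 50 bases after a start site) were listed for 26 of the 31 genes, a set that differs from the 26 tested genes. Actg2, Myh11, Tagln, Myocd and Nexn had no listed promoter and were not searched. Strict CArG boxes, on either strand, stood in the window of 4 of the 26 genes with a listed promoter (15.4%), Myl9, Vcl, Ldb3 and Dmd. Over all 27025 genes with a listed promoter the share was 1.81%. Allowing 1 G or C in the central run of 6 bases, 8 of 26 genes (30.8%) and 11.3% of all genes had a match. The 250 bases before the start are shown for 4 genes, with the matches in capitals, because Acta2 and Myl9 follow the common pattern of the arrays described further on and Vcl and Dmd, at their brightest probes, do not. These are Acta2 (chr19:34255374-34255623, minus strand), Myl9 (chr2:156775214-156775463, plus strand), Vcl (chr14:20929148-20929397, plus strand) and 1 start site of Dmd (chrX:82948620-82948869, plus strand).
Acta2: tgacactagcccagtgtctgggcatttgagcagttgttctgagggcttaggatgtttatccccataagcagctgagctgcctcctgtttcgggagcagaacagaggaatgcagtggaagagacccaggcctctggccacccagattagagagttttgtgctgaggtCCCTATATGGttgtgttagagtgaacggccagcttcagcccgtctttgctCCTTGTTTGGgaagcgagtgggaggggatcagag
Myl9: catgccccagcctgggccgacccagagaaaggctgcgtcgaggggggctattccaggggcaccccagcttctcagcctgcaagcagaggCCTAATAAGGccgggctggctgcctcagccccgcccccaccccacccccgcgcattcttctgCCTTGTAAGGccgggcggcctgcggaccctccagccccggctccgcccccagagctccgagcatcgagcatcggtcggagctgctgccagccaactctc
Vcl: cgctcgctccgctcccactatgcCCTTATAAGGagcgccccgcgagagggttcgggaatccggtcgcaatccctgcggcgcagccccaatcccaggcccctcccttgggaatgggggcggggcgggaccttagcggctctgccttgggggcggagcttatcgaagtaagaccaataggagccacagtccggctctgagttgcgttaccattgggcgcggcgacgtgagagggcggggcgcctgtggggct
Dmd: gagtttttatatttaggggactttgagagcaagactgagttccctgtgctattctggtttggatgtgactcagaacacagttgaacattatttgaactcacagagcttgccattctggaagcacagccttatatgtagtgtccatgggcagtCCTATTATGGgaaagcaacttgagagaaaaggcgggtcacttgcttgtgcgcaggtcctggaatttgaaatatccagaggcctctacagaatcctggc
The Acta2 matches CCCTATATGG and CCTTGTTTGG begin 84 and 34 bases before the start, and each holds 1 G or C in the run. Myl9 has the strict box CCTAATAAGG 161 bases before its start and the looser CCTTGTAAGG 99 bases before it. Vcl has CCTTATAAGG 227 bases before the start and Dmd has CCTATTATGG 98 bases before it. A match is a description of letters in these windows and not evidence of binding.

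Before the results, 2 arrays need to be named. Control 1 stood apart in the muscle wall genes, as the values below show, and metformin 1 stood apart in markers of intestinal region. Fabp6, which binds bile acids in ileal enterocytes, stood at 4.16 and 8.70 in metformin 1 and 2, against 8.94 and 8.29 in control 1 and 2, on the scale used throughout, the log2 signal minus the 75th percentile of that array. The list median of proximal small intestine markers, after centring each gene on its mean over the 4 arrays, was 1.96 and -1.003 in metformin 1 and 2, against -0.08 and -0.66 in control 1 and 2. Metformin 1 was thus low in an ileal marker and high in proximal ones by list median, for a sample labelled ileum. Slc40a1 and Cybrd1 of the proximal list went the other way and were lowest in metformin 1, at -1.68 and -3.94. Epithelial markers had list medians of -0.06 and 0.25 in the metformin samples and 0.01 and -0.04 in the controls, although single markers differed more, such as Krt18, at 6.04 and 7.46 with metformin and 6.26 and 7.12 in the controls. Across all genes tested the correlation was 0.967 within the metformin pair, 0.973 within the control pair and 0.993 between metformin 2 and control 2, and genes are not independent replicates. No spot was saturated.

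None of the 26 tested contractile genes passed the test between metformin and control, and their large differences rested on control 1. In limma's fit with Benjamini-Hochberg adjustment 0 of 26 genes passed, as did 0 of all 21648 (0%), and the smallest adjusted p among the contractile genes was 0.9996. At an unadjusted p under 0.05 there were also 0 of 26, the smallest being 0.086, against 1.25% of all genes lower and 0.351% higher. The median log2 difference, metformin minus control, was -2.07 over the 26 genes and 0.06 over all genes. In this bulk tissue fewer muscle cells and less RNA per cell cannot be told apart. In 14 of 26 genes (53.8%) both metformin arrays lay below both control arrays, against 8.46% of all genes, and in 13 of 26 the difference was also at least 2-fold, against 2.31% of all genes. In the other direction 0 of 26 genes were free of overlap, against 12.5% of all genes. Without control 1 the median difference was -0.48 and 0 of 26 genes were at least 2-fold lower without overlap, against 4.36% of all genes in that setting. Without metformin 1 the median was -2.08 and the count 13, against 3.93% of all genes.

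**Figure D1:**
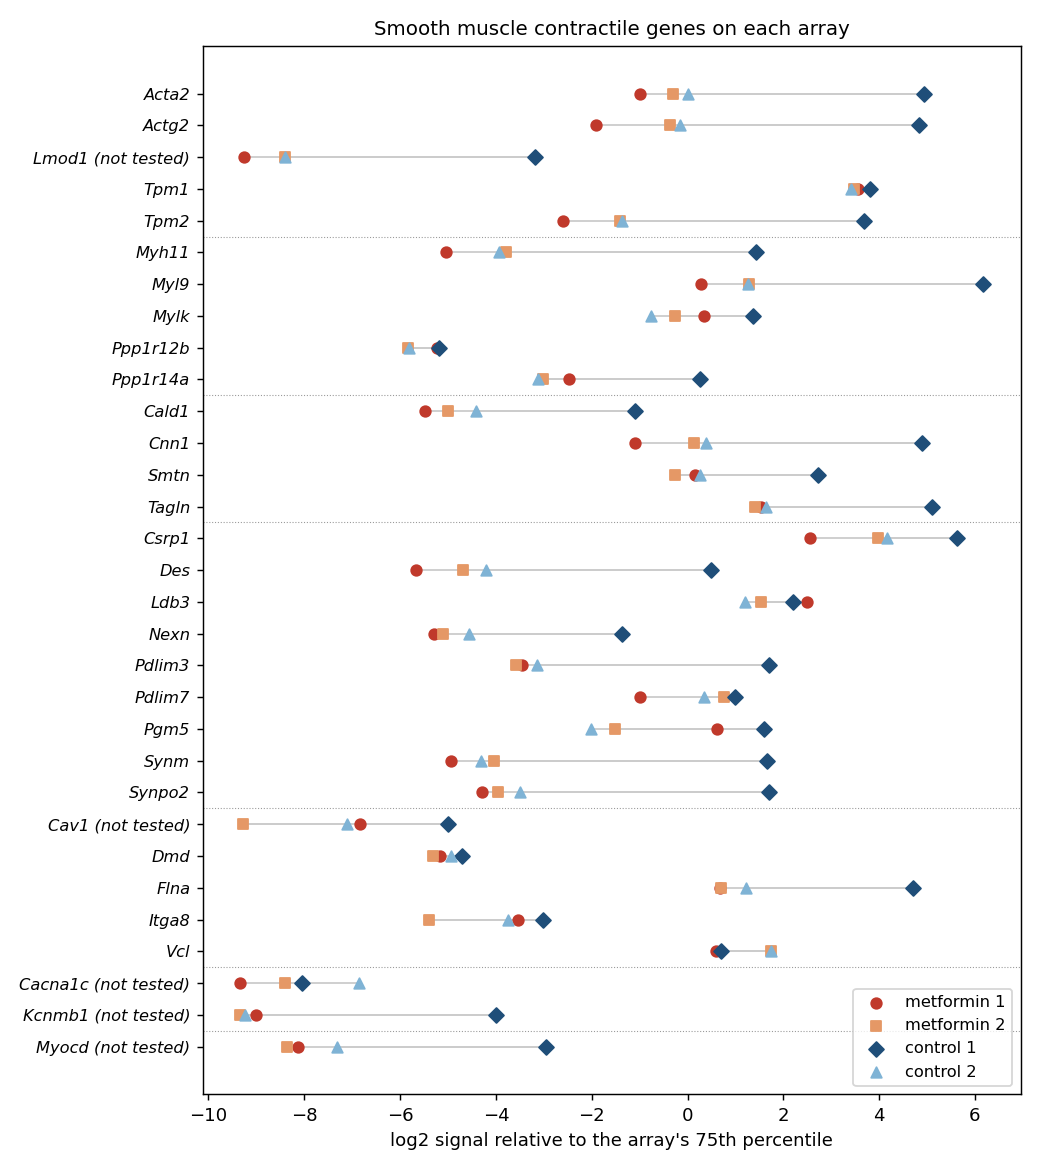
Log2 signal relative to each array's 75th percentile (x axis) for the 31 contractile genes (y axis, grouped by role with dotted lines: thin filament, myosin and its control, thin filament regulators, filament and Z-line proteins, membrane anchors, channels, coactivator). Each point is 1 array. Control 1 lies at the right for most genes, in many of which the other 3 arrays lie together. Tpm1, Ppp1r12b, Dmd, Ldb3, Vcl, Pdlim7, Itga8 and Cacna1c do not show this gap. The other arrays are spread in Pgm5, Mylk and Csrp1.

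Read array by array, most of the 26 genes set control 1 apart from the other 3 arrays. Control 1 was the highest of the 4 arrays in 24 of 26 genes (92.3%), against 21.9% of all genes. It exceeded each of the other 3 arrays by at least 4-fold in 16 of 26 genes (61.5%), against 1.03% of all genes. The summed level of the 26 genes, in units of the array's 75th percentile, was 36.9 and 47.1 in metformin 1 and 2, against 335 in control 1 and 49.6 in control 2. Control 2 thus lay much nearer to the metformin samples than to control 1. The median gap between the 2 controls was 3.43 on the log2 scale, and that between metformin 1 and metformin 2 was -0.26. Just inside the 4-fold line were Smtn and Ppp1r14a, with control 1 above the next array by 2.47 and 2.74, and just outside it were Csrp1 and Mylk, at 1.47 and 1.02.

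Actin is the main protein of the thin filament, and smooth muscle has its own forms of it. Acta2, smooth muscle alpha-actin, gave a processed signal of 437 and 869 in metformin 1 and 2, against 27982.5 in control 1 and 1454 in control 2. On the log2 scale these are -0.98 and -0.30 with metformin and 4.93 and 0.00 in the controls, a difference of -3.11 (SE 1.70). Actg2, the enteric gamma-actin typical of gut muscle, read -1.91 and -0.37 with metformin and 4.84 and -0.17 in the controls, a difference of -3.47 (SE 1.78). In both genes the groups did not overlap, yet metformin 2 and control 2 were within 0.30 of each other and control 1 stood alone. The coding sequences of the actins are closely alike, so their probes can detect each other's RNA, which was not tested here. Tropomyosins wind along the actin filament and set when myosin can bind. Tpm2, encoding beta-tropomyosin, read -2.60 and -1.40 with metformin and 3.69 and -1.37 in the controls, so control 1 was 33.3-fold above control 2. Tpm1, encoding alpha-tropomyosin, which many cell types make in other splice forms, read 3.56 and 3.48 with metformin and 3.81 and 3.41 in the controls. All 5 kept probes of Tpm1 were flat between the controls (gaps of 0.04 to 0.40), whereas both Tpm2 probes showed gaps of 5.06 and 5.34. Lmod1, leiomodin, which nucleates actin filaments in smooth muscle, was well above background on control 1 alone, with a processed signal of 1.41 and 3.14 with metformin, against 101 in control 1 and 4.32 in control 2, and was not tested.

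The motor and its switch followed in part. Myh11, the smooth muscle myosin heavy chain and a strict marker of this cell type, read -5.03 and -3.80 with metformin and 1.43 and -3.93 in the controls (difference -3.16, SE 1.87). Its groups overlapped, since metformin 2 lay above control 2. Myl9, the regulatory light chain that the kinase phosphorylates, read 0.28 and 1.28 with metformin and 6.17 and 1.25 in the controls (difference -2.93, SE 1.71). Metformin 2 and control 2 again coincided, within 0.02. Mylk, the light chain kinase, whose gene also gives a long form made outside muscle, read 0.35 and -0.26 with metformin and 1.37 and -0.77 in the controls. The difference of Mylk was -0.26 (SE 0.80), and control 2 was its lowest array. Ppp1r14a, known as CPI-17, an inhibitor of myosin phosphatase, read -2.47 and -3.02 with metformin and 0.27 and -3.13 in the controls (difference -1.31, SE 1.19). It too was high on control 1 alone. Ppp1r12b, a targeting subunit of that phosphatase, was dim and nearly level at -5.23 and -5.83 with metformin and -5.18 and -5.81 in the controls. In these 5 genes 0 were free of overlap, against 8.46% of all genes lower and 12.5% higher.

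The thin filament regulators were the most uniform of these small groups, read from the brightest probe of each gene. With metformin 4 of 4 genes were at least 2-fold lower without overlap, against 2.31% of all genes. Control 1 was at least 4-fold above every other array in 4 of 4, against 1.03% of all genes. Cnn1, calponin, which restrains the actin-activated myosin ATPase, read -1.09 and 0.13 with metformin and 4.90 and 0.39 in the controls (difference -3.13, SE 1.59). Cald1, caldesmon, an inhibitor of the same step, read -5.47 and -5.01 with metformin and -1.09 and -4.42 in the controls (difference -2.48, SE 1.16). Tagln, transgelin or SM22, an actin-bundling protein widely used as a smooth muscle marker, read 1.53 and 1.40 with metformin and 5.10 and 1.63 in the controls (difference -1.90, SE 1.20). Smtn, smoothelin, found in contractile smooth muscle, read 0.16 and -0.27 with metformin and 2.73 and 0.26 in the controls (difference -1.55, SE 0.89). Against control 2 alone the mean of the metformin arrays was lower by far less: -0.87 for Cnn1, -0.82 for Cald1, -0.31 for Smtn and -0.17 for Tagln.

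Among the intermediate filament, Z-line and dense body proteins, 5 of 9 were at least 2-fold lower without overlap, against 2.31% of all genes. The range of differences ran from -3.32 to 0.31. Des, desmin, the muscle intermediate filament, read -5.66 and -4.68 with metformin and 0.49 and -4.20 in the controls (difference -3.32, SE 1.63). Synm, synemin, a filament partner of desmin, had the widest gap between the controls of all 26 genes, 5.98 (63.2-fold), at -4.95 and -4.05 with metformin and 1.67 and -4.31 in the controls. Its metformin 2 value lay above control 2, so the groups overlapped. Synpo2, myopodin, an actin-bundling Z-line protein, read -4.29 and -3.97 with metformin and 1.71 and -3.49 in the controls (difference -3.23, SE 1.77). Pdlim3, an actinin-associated LIM protein, read -3.46 and -3.57 with metformin and 1.69 and -3.15 in the controls (difference -2.79, SE 1.65). Nexn, nexilin, an F-actin binding protein, read -5.30 and -5.10 with metformin and -1.36 and -4.56 in the controls (difference -2.23, SE 1.11). As for desmin, both metformin arrays of these 3 genes lay below control 2, and control 1 lay far above it. Csrp1, a cysteine-rich LIM protein of smooth muscle, was graded: 2.56 and 3.98 with metformin and 5.63 and 4.16 in the controls. Its unadjusted p of 0.086 was the smallest of the 26 (difference -1.63, SE 0.74). Metformin 1 minus metformin 2 was -1.42, and control 1 minus control 2 was 1.47, so neither pair was tight. Pdlim7, known as enigma, read -0.99 and 0.75 with metformin and 1.00 and 0.34 in the controls. Ldb3, also called ZASP or Cypher and best known from striated muscle, was the only tested gene with a difference above 0 (0.31, SE 0.54), at 2.49 and 1.54 with metformin and 2.21 and 1.19 in the controls.

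The membrane anchors were mixed. Flna, filamin A, which ties actin to integrins, read 0.68 and 0.70 with metformin and 4.71 and 1.23 in the controls (difference -2.28, SE 1.20). It was the 1 of these 4 tested genes at least 2-fold lower without overlap, against 2.31% of all genes. Dmd, dystrophin, was lower without overlap by a small amount, at -5.17 and -5.32 with metformin and -4.70 and -4.94 in the controls (difference -0.43, SE 0.29). Itga8, the integrin alpha8 chain, was lowest in metformin 2, at -3.53 and -5.40 with metformin and -3.01 and -3.74 in the controls. Vcl, vinculin, an adhesion protein of most cell types, divided by sample number: 0.59 and 1.73 with metformin and 0.70 and 1.74 in the controls. Control 1 and metformin 1 were its low arrays, so vinculin did not show the excess of control 1. Cav1, caveolin-1, was well above background on control 1 alone, with a processed signal of 7.55 and 1.71 with metformin, against 28.8 in control 1 and 10.5 in control 2.

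The ion channel subunits and myocardin were well above background on 1 of 4 arrays each and were not tested. Kcnmb1, the smooth muscle beta subunit of the calcium-activated potassium channel, gave a processed signal of 1.67 and 1.66 with metformin, against 57.6 in control 1 and 2.40 in control 2. Myocd, myocardin, gave 3.09 and 3.23 with metformin, against 118 in control 1 and 9.17 in control 2. Both were well above background on control 1 only. Cacna1c, the pore of the L-type calcium channel, was well above background on control 2 only, at 1.33 and 3.17 with metformin, against 3.44 in control 1 and 12.6 in control 2. No fold is given for these genes because too few arrays measured them.

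**Figure D2:**
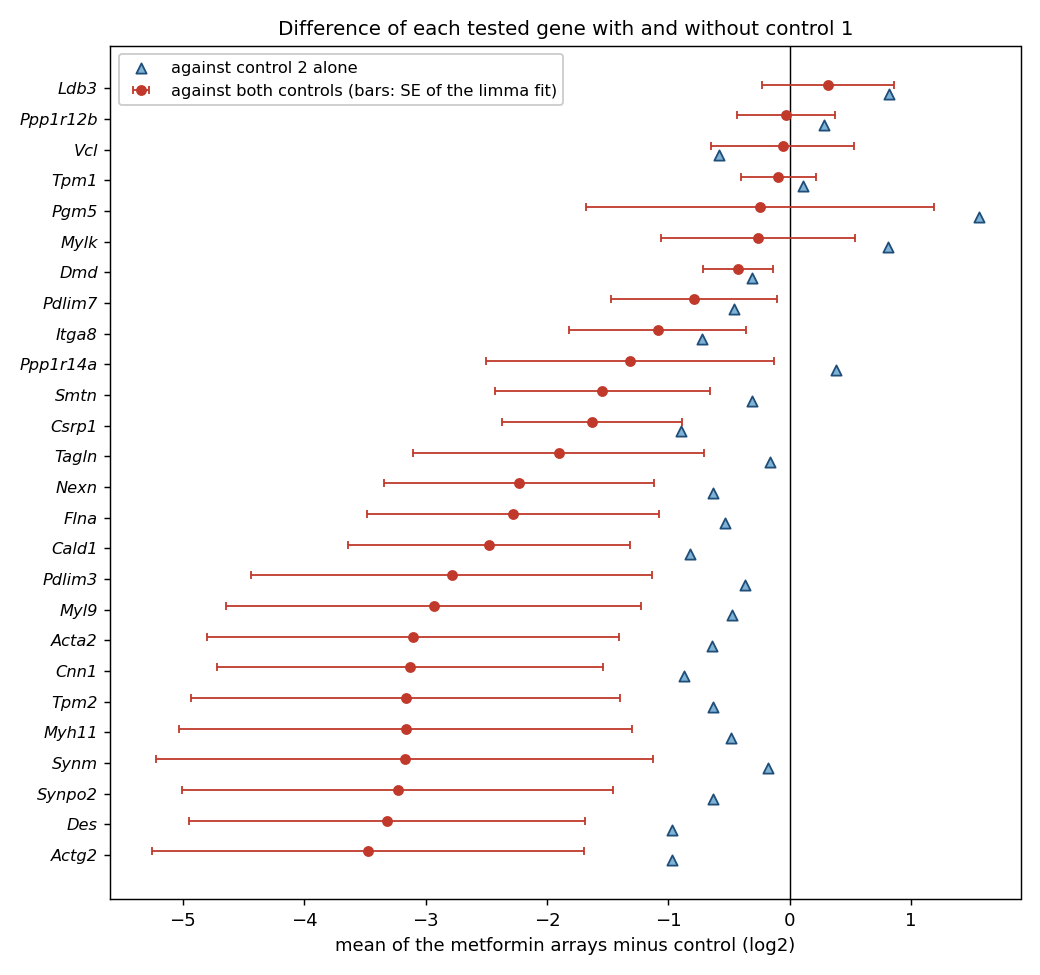
Mean of the 2 metformin arrays minus control (x axis, log2) for the 26 tested genes (y axis), against both controls (circles, with the standard error of the limma fit) and against control 2 alone (triangles, no error). The circles reach -3.47 for Actg2, whereas the triangles lie between -0.97 and 1.56.

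Setting control 1 aside leaves small differences. Against control 2 alone, both metformin arrays were lower in 15 of 26 genes (57.7%), against 24.8% of all genes. Metformin 1 lay below control 2 in 19 of 26 genes and metformin 2 in 17, against 41.9% and 39.8% of all genes. The lowest differences of the metformin mean from control 2 were -0.97 for Des and -0.97 for Actg2, followed by -0.89 for Csrp1 and -0.87 for Cnn1. The genes that went the other way were Pgm5 at 1.56, Ldb3 at 0.82, Mylk at 0.81, Ppp1r14a at 0.38, Ppp1r12b at 0.28 and Tpm1 at 0.11. With 1 control left, limma's fit assumed the lone control to vary like the metformin samples, so only the size of the differences is given. Without control 2, by contrast, the median difference was -3.74. At least 2-fold lower without overlap were then 21 of 26 genes, against 5.89% of all genes in that setting.

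Several genes carried more than 1 probe, and these did not always move alike. Pgm5, a phosphoglucomutase-related protein of muscle adhesion plaques, was read from its brightest probe at 0.62 and -1.51 with metformin and 1.61 and -2.004 in the controls (difference -0.25, SE 1.44). Its second kept probe, assigned to the same transcript, read -5.93 and -4.50 with metformin and 0.76 and -4.55 in the controls, a difference of -3.32. The excess on metformin 1 in the brightest Pgm5 probe was thus not seen in the second, which followed the pattern of Myh11. Of the 2 dimmer Dmd probes, which were not kept, 1 read -8.95 and -8.72 with metformin and -5.54 and -8.83 in the controls, and the other read -8.80 and -6.62 with metformin and -4.05 and -9.38 in the controls. Both were highest on control 1, where the tested Dmd probe was nearly level with control 2. For Synpo2 the second kept probe differed by -0.46, against -3.23 for the brightest, although its control gap was 3.92. The other kept probes of Pdlim7 had a control gap of up to 2.21, against 0.66 for the brightest one. The second kept probe of Smtn had a control gap of 0.64 and a difference of -0.79, against 2.47 and -1.55 for the brightest. The kept probes of Tpm2, Cald1, Synm and Smtn shared the sign of their difference. Those of Vcl, Tpm1 and Ldb3 did not, with differences between -0.06 and 0.02, -0.14 and 0.18, and -0.18 and 0.31.

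**Figure D3:**
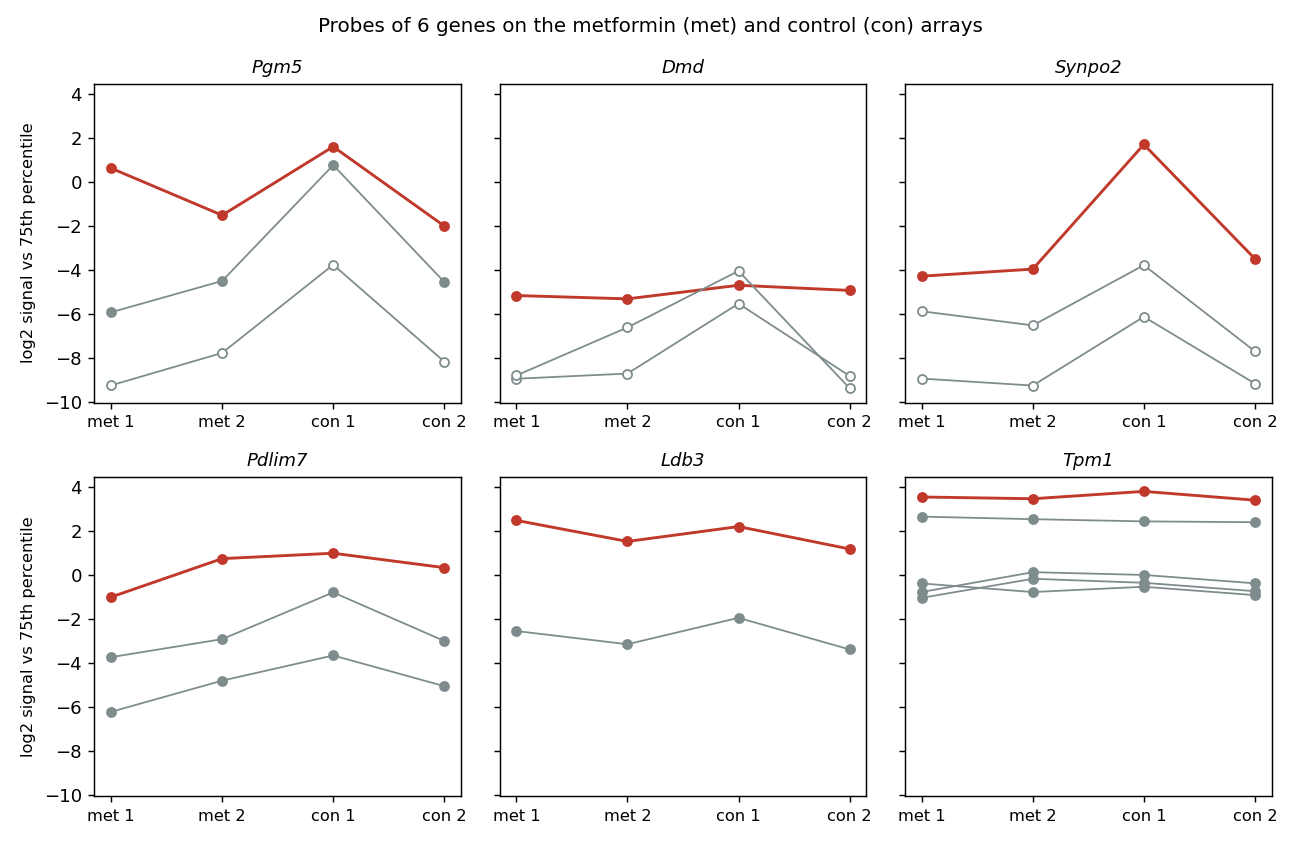
Log2 signal after subtracting each array's 75th percentile (y axis) of every probe of 6 contractile genes on the 4 arrays (x axis, met for metformin and con for control). Red lines are the tested probes, grey lines the others, and open circles mark probes not well above background on every array. The grey Pgm5 and Dmd probes peak on control 1, whereas their red probes do not stand out there in the same way.

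The other genes of contraction and its control were read from 10 lists with 188 genes, of which 153 were tested. In limma's fit 0 of 153 passed after Benjamini-Hochberg adjustment. At an unadjusted p under 0.05 there were 19 of 153, against 1.25% of all genes lower and 0.351% higher. Because a gene that entered through its high group alone had to differ, the lists are described over the 142 genes well above background on all 4 arrays. Both metformin arrays lay below both controls in 37 of these 142 genes (26.1%), against 8.27% of all genes that met the same condition, and above them in 16, against 11.2%. Over all 153 the first count was 43, against 8.46% of all genes tested. In limma's fit 16 of the 142 genes had an unadjusted p under 0.05. Control 1 was at least 4-fold above every other array in 21 of 142 genes (14.8%), against 0.832% of all genes that met the condition. The median difference of the 142 genes was -0.13, and -0.03 without control 1.

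Each list count without overlap below is to be read against all genes well above background on every array. Of those 8.27% were lower and 11.2% higher without overlap. Receptors that start or stop contraction had a median difference of -0.40, and -0.0057 without control 1 (10 genes, 3 lower and 0 higher without overlap). Ednra, the endothelin A receptor, read -4.95 and -4.54 with metformin and -3.30 and -3.17 in the controls (difference -1.51, SE 0.31, unadjusted p = 0.00637 in limma's fit, not passing after adjustment). Ednrb, the endothelin B receptor, differed by -0.83 (SE 0.28), and Chrm3, the muscarinic receptor through which acetylcholine contracts gut muscle, by -0.63 (SE 0.33). In these 3 genes the 2 controls were close together, unlike in most of the contractile genes. Potassium channels had a median difference of -1.59, and -0.28 without control 1 (8 genes, 3 lower without overlap), with Kcnma1, the pore that Kcnmb1 modulates, at -5.50 and -3.99 with metformin and -2.93 and -3.53 in the controls. Kcnh2 differed by -1.66 (SE 0.67), and by -0.86 against control 2 alone. The calcium list was close to level, at a median of 0.07, and 0.34 without control 1 (12 genes, 0 lower and 2 higher without overlap). Cacna1h, a T-type calcium channel, read -3.80 and -3.50 with metformin and -1.51 and -3.50 in the controls, and Cacna2d1, an accessory channel subunit, read -3.34 and -3.09 with metformin and -1.35 and -3.36 in the controls. Both were high on control 1 alone. Orai1, the store-operated calcium channel, differed by 0.39 (SE 0.30).

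The nitric oxide and cyclic nucleotide list, which relaxes the muscle, had a median of -0.72, and 0.03 without control 1. In 5 of 12 genes control 1 was at least 4-fold above the rest, against 0.832% of all genes well above background on every array. Gucy1b1, the beta subunit of the nitric oxide receptor guanylate cyclase, read -4.60 and -6.37 with metformin and -1.44 and -5.17 in the controls. Prkar2b, a regulatory subunit of protein kinase A, differed by -1.21 (SE 0.37), and by -0.85 against control 2 alone. Adcy5, an adenylyl cyclase, read -4.40 and -4.36 with metformin and -1.69 and -4.05 in the controls, so its difference of -1.50 (SE 0.84) was -0.32 against control 2 alone. Actin, myosin and tropomyosin forms that other cells make had a median of 0.17, and 0.20 without control 1 (12 genes, 1 lower and 4 higher without overlap, 0 with control 1 at least 4-fold apart). Actb, the cytoplasmic beta-actin, read 8.81 and 8.64 with metformin and 8.72 and 8.23 in the controls, Myh9 differed by 0.25 (SE 0.28) and Cnn3 by -0.70 (SE 0.33).

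The dystrophin complex, caveolae and basement membrane list had 12 of 18 genes lower without overlap, against 8.27% of all genes well above background on every array. Its median was -1.12, which was -0.97 without control 1 and -0.96 without metformin 1. Nid1, nidogen, which links the laminin and collagen networks of basement membranes, read -2.14 and -1.78 with metformin and -0.20 and -0.51 in the controls (difference -1.60, SE 0.32). Lamc1, a laminin chain shared by many basement membranes, read -1.16 and -0.47 with metformin and 0.39 and 0.40 in the controls (difference -1.21, SE 0.36). Cav2, the partner of caveolin-1, differed by -1.49 (SE 0.44), and by -1.03 against control 2 alone. For Nid1 and Lamc1 the controls lay close together, the metformin mean was also below control 2 alone (-1.45 and -1.21), and neither gene is made by muscle alone. Dense plaque and linker proteins had a median of -0.35, which was -0.06 without control 1 and 0.0083 without metformin 1 (25 genes, 7 lower and 5 higher without overlap). Lims2, a LIM protein of integrin adhesions, read -4.00 and -3.68 with metformin and 0.82 and -2.46 in the controls, a difference of -3.03 (SE 1.14) that was -1.39 against control 2 alone. Fermt2, kindlin-2, an integrin activator, read -4.16 and -4.48 with metformin and -1.10 and -3.29 in the controls, a difference of -2.12 (SE 0.79) that was -1.03 against control 2 alone. Itga9, an integrin alpha chain, differed by -1.55 (SE 0.69), and by -0.69 against control 2 alone. The list of transcriptional control had a median of 0.05, and -0.05 without control 1 (16 genes, 4 lower without overlap). Foxf1, a transcription factor of gut mesenchyme, read -1.83 and -2.21 with metformin and 0.31 and -0.92 in the controls (difference -1.72, SE 0.51, and -1.10 against control 2 alone), while Nkx3-2 and Tcf21 differed by -0.80 (SE 0.32) and -0.996 (SE 0.56). Muscle energy and filament partners had a median of -1.41, and -0.45 without control 1 (13 genes, 4 lower and 1 higher without overlap). Hspb8, a small heat shock protein, differed by -3.12 (SE 1.15), and by -1.80 against control 2 alone. Sync differed by -1.41 (SE 0.42) and Pygm, muscle glycogen phosphorylase, by -0.84 (SE 0.31).

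**Figure D4:**
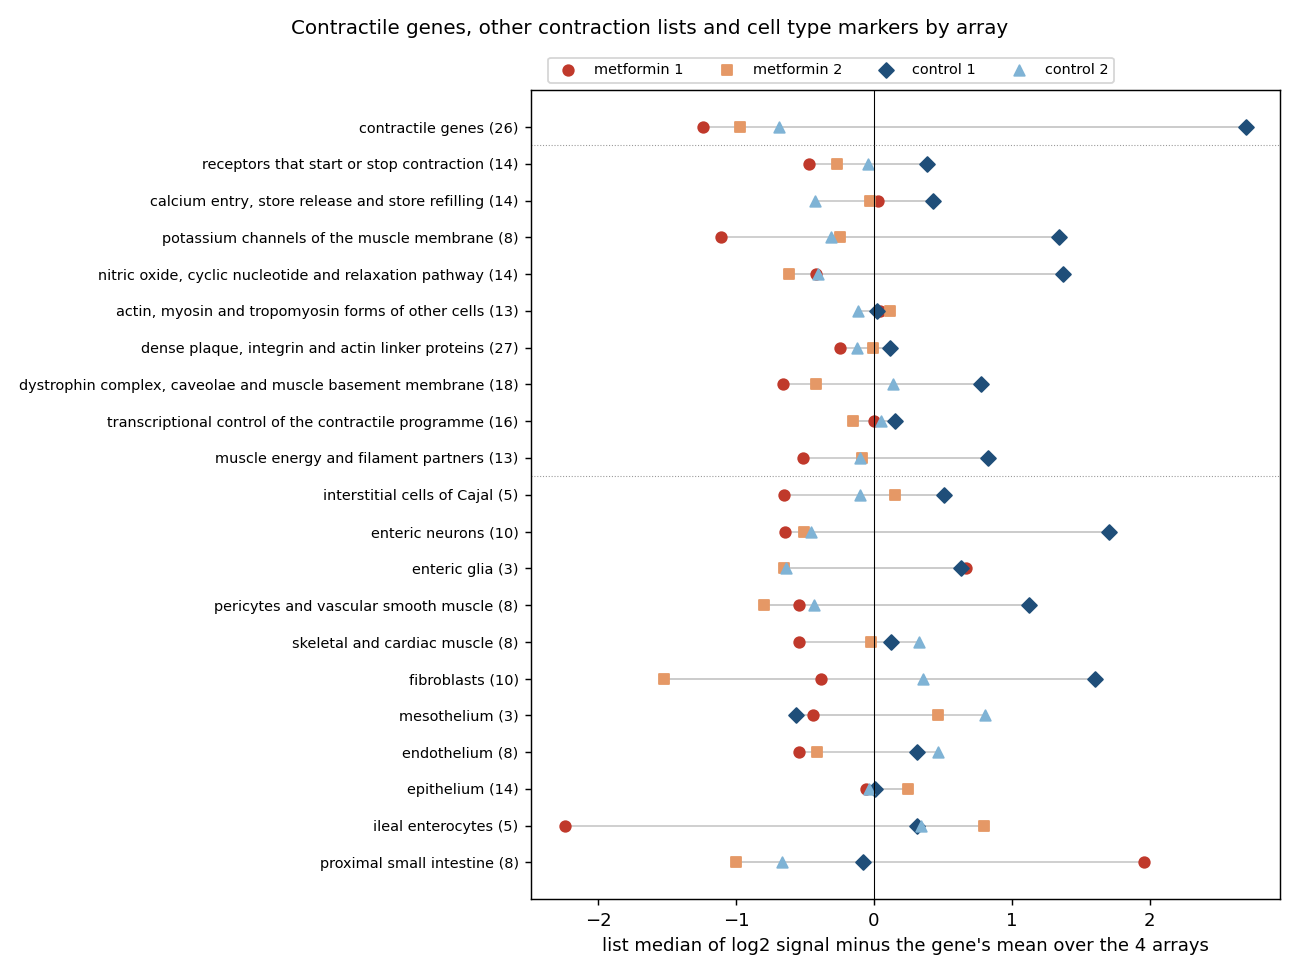
List median of log2 signals, each gene centred on its 4-array mean (x axis), by array, for the 26 contractile genes, lists of other contraction genes and 11 lists of cell type markers (y axis, number of tested genes in brackets). Contractile genes, potassium channels, the nitric oxide list, enteric neurons, pericytes and fibroblasts have control 1 at the right. Epithelium does not, and metformin 1 stands apart in ileal and proximal markers. Medians are over all tested genes, some of which, such as Uchl1, Vip and Stmn2 among neurons, entered through 1 group alone.

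Markers of other cells of the gut wall moved with the contractile genes in part; their list medians by array and summed levels are over all tested genes. Enteric neuron markers, which mark the plexus between the muscle layers, had list medians of -0.65 and -0.51 with metformin, against 1.70 in control 1 and -0.46 in control 2. These medians cover 10 tested genes, among them Uchl1, Vip and Stmn2, which were well above background on 3 of 4 arrays. Such genes entered through 1 group alone, so the filter itself favoured a difference in them. In 2 of the 7 genes well above background on every array control 1 was at least 4-fold above the rest, against 0.832% of all such genes. The median difference of these 7 genes was -0.28, and 0.10 without control 1. Over all 10 tested genes the summed level was 27.2 to 38.3 with metformin and 19.1 to 33.1 in the controls. That sum was dominated by the bright Snap25, which endocrine cells of the epithelium also make, and Nos1 was not above background on any array. Pericyte and vascular smooth muscle markers had medians of -0.54 and -0.80 with metformin, 1.12 in control 1 and -0.44 in control 2, with a summed level of 0.52 to 0.85 with metformin and 1.00 to 3.50 in the controls. In this list 3 of 8 genes had control 1 at least 4-fold apart, against 0.832% of all genes well above background on every array. Among them was Rgs5, at -5.57 and -4.26 with metformin and 0.95 and -4.42 in the controls. Fibroblast markers were lower in both metformin arrays than in both controls in 8 of the 9 genes well above background on every array, against 8.27% of all such genes. Of the 9, 7 had an unadjusted p under 0.05 in limma's fit, against 1.25% of all genes lower and 0.351% higher, and 0 passed after adjustment. The median difference was -2.03, and -1.36 without control 1. Over all 10 tested genes the list had a summed level of 7.36 to 19.3 with metformin and 21.3 to 42.9 in the controls. Fbln1 went the other way (difference 0.57), at 3.35 and 1.43 with metformin and 2.32 and 1.31 in the controls. It was the brightest of these genes in metformin 1 and weighs heavily in that sum. Markers of interstitial cells of Cajal, the pacemakers of the muscle layers, differed by a median of -0.63, and -0.33 without control 1 (4 genes well above background on every array). Over all 5 tested genes of this list the summed level was 1.52 to 2.16 with metformin and 2.73 to 3.84 in the controls. Kit, the receptor that marks them, read -0.75 and -0.63 with metformin and 0.21 and -0.03 in the controls.

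The remaining markers did not show the excess of control 1. Enteric glia markers had 3 tested of 6, with medians of 0.67 and -0.65 with metformin and 0.63 and -0.64 in the controls, a division by sample number, and Foxd3 was not above background on any array. Their summed level was 0.23 to 0.53 with metformin and 0.23 to 0.64 in the controls. Endothelial markers differed by a median of -1.15 (7 genes well above background on every array), and -1.03 without control 1. Of these, 0 of 7 had control 1 at least 4-fold apart, against 0.832% of all such genes. Over all 8 tested endothelial genes the summed level was 0.54 to 0.87 with metformin and 1.11 to 1.33 in the controls. Skeletal and cardiac muscle markers differed by a median of -0.85, which was -1.03 without control 1 and -0.15 without metformin 1 (6 genes well above background on every array). Over all 8 tested genes of this list the summed level was 0.55 to 8.34 with metformin and 3.89 to 9.68 in the controls. Myh1, Myh2, Myh4 and Tnnt3 were not above background on any array. Mesothelium, the outer lining of the gut, had 3 tested markers of 7, with a summed level of 2.04 to 8.38 with metformin and 3.03 to 7.33 in the controls, and control 1 was lowest by its median (-0.56). The part of these cell types in the difference of the contractile genes was not tested.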

How the data were processed

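RNA of 2 metformin and 2 control ileum samples was hybridised to Agilent single-colour arrays. Per the file headers, spots were read with Feature Extraction 10.7.3.1, which gives a background-subtracted processed intensity for each spot. The deposited table of the whole series holds the authors' intensity values, which equalled the raw median spot intensity for 39030 of 39030 single-spot probes (tolerance 1e-06), so it was used as an alternative only. Further steps of the authors are not given in the sources used here.

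Flagged outlier spots and control spots were left out, spots of a probe were averaged, and log2 of the processed intensity minus the array's 75th percentile over non-control probes was used. Of 39429 probes, 47 had no usable spot. Probes entered the test when Feature Extraction called them well above background in the complete metformin pair or control pair, and a gene was read from its brightest kept probe (26440 probes kept, 21648 genes and transcripts tested). The groups were compared with limma 3.58.1 (lmFit and eBayes, R 4.3.3) and Benjamini-Hochberg adjustment over all 21648, at a threshold of 0.05, two-sided. With 2 residual degrees of freedom, the number of arrays limits the precision. The fit was tested on simulated data. Standard errors are those of the fit. Promoters and CArG boxes came from RefSeq tables of build GRCm38.p6.

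The 31 genes, 10 pathway lists and 11 marker lists were chosen with earlier results of these data known. All 31 genes are described. From each pathway list the 3 tested genes of smallest unadjusted p among those well above background on every array are named. Of these, 1 gene and the genes of 1 list are not reported here. Fabp6, Krt18, Rgs5, Kit, Snap25, Uchl1, Vip, Stmn2, Fbln1, Slc40a1 and Cybrd1 were singled out after their values were seen. Alternatives covered background correction, scaling, the deposited table, the filter, flagged spots, probe choice, the variance model, the replicate number as a block and leaving out each array.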

Additional observations from a re-analysis of the deposited data

How the results depend on the processing

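None of the 26 contractile genes passed the adjusted threshold in limma's fit under any of the 16 alternatives, and 18 of 26 kept the sign of their difference in all of them. Scaling moved the median difference of all genes to -0.20 with no scaling, -0.17 with the deposited table as it stands and 0.19 with median scaling, against 0.06. With no scaling 22 contractile genes were lower without overlap, against 14. In limma's fit 10 of 26 then had an unadjusted p under 0.05. That count was not made over all genes in that setting, so it has no share to be read against. The share of all genes lower and higher without overlap was then 16.8% and 1.75%, against 8.46% and 12.5%. It was 17.8% and 1.34% with the deposited table as it stands, and 5.13% and 26.4% with median scaling. Of the other contraction genes, 24 were lower without overlap after normexp correction and 65 with the unscaled deposited table, against 43. The share of all genes lower was 5.24%, 17.8% and 8.46% in turn. The difference of Ppp1r12b turned to 0.18 with normexp, 0.073 with quantile normalization, 0.093 with median scaling and 0.14 with the deposited table after subtracting the 75th percentile. That of Tpm1 turned to 0.030 with median scaling and 0.0065 with the mean over probes, and that of Vcl to 0.065 with median scaling. The cause was not tested. Leaving out each array in turn, the contractile genes lower without overlap numbered 15 to 24, against 21.6% to 31.7% of all genes. Those also at least 2-fold lower numbered 0 (without control 1, against 4.36% of all genes) to 21 (without control 2, against 5.89%). The median difference ran from -3.74 (without control 2) to -0.48 (without control 1). The other contraction genes lower without overlap numbered 53 to 81 of 153, against the same 21.6% to 31.7% of all genes. Over the same omissions the difference of Mylk ran from -1.33 to 0.81, of Pgm5 from -2.05 to 1.56, of Ldb3 from -0.20 to 0.82, of Ppp1r12b from -0.35 to 0.28, of Ppp1r14a from -3.01 to 0.38, of Vcl from -0.63 to 0.51, of Pdlim7 from -1.66 to 0.083 and of Tpm1 from -0.29 to 0.11. Fewer arrays make groups without overlap easier to reach. With the replicate number as a block 0 contractile genes passed in limma's fit, and the smallest adjusted p was 0.631. In this balanced layout the block could move only the p-values. The counts without overlap (14, 13 of them at least 2-fold, and 43 other contraction genes) and the median of -2.07 were bound to stay the same. The deviations from the group means of the 2 arrays numbered 1 correlated at 0.563 across genes, and with 2 pairs the number is not known to pair the samples. The normexp correction used median spot signals, a choice made after seeing the data. A block for the slide was not run because all arrays shared 1 slide. Genes well above background on 1 array only (5 of 31) were compared only without a filter on dim probes. In that setting 17 of 31 genes were lower without overlap, against 8.41% of all genes.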
